A study of Mus musculus with 7 samples.

Results

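The genes described here are 8 Toll-like receptor genes (Tlr1, Tlr2, Tlr3, Tlr4, Tlr6, Tlr7, Tlr9 and Tlr13), the co-receptor gene Cd14 and the adaptor gene Myd88. They were taken by exact match of the gene name, and all 10 were found among the 50435 gene rows of the deposited expression table. RNA came from sorted mouse marrow cells that the labels call sinusoidal endothelium, the cells that line the venous vessels of the marrow. Recipients were wild-type mice that had been irradiated and given Zbtb46dtr marrow, whose cells make the toxin's receptor wherever Zbtb46, used to mark classical dendritic cells, is active. After 8 weeks, 3 samples came from mice injected with 200 ng of diphtheria toxin in PBS (DT) and 4 from mice injected with PBS alone, and all marrow was harvested 1 day later. Both groups were irradiated and carry the receptor allele in donor-derived cells only, while surviving cells of the wild-type host lack it, so the comparison asks how the sorted RNA differs after toxin was given to ablate classical dendritic cells. The labels call the samples biological replicates without saying how many mice each holds, so p-values measure the spread between these samples, which may be partly technical. The gate kept CD31+ Sca1- cells that lacked CD45, Ter119, Gr1 and CD11b.

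Toll-like receptors are membrane proteins that recognise conserved microbial molecules. Tlr1, Tlr2, Tlr4 and Tlr6 act mainly at the cell surface, and Tlr3, Tlr7, Tlr9 and Tlr13 bind nucleic acids inside endosomes. All of these except Tlr3 pass their signal through Myd88 to IRAK kinases and NF-kB, while Tlr3 uses the adaptor Ticam1. In marrow and blood the family is best known from neutrophils, monocytes, macrophages, dendritic cells and B cells, and some members are also found on endothelium.

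The unit is RPM, the reads of a gene for every 1000000 of its library, with no scaling by gene length. The most frequent low value of each library was taken as 1 read and put the libraries at 33195600 to 51245500 reads, so that 3 reads equal 0.0585 to 0.0904 RPM. These limits cover counting error only, since reads amplified by PCR are not independent molecules. The sorted label was not matched by endothelial markers. Each of 12 endothelial genes, among them the junction gene Cdh5, the growth factor receptors Kdr and Flt4 and the sinusoidal scavenger receptor Stab2, averaged at most 2.81 RPM in either group, and their sum was 10.2 to 18.7 RPM in DT and 1.45 to 9.35 RPM in PBS. The RNA is therefore called that of the sorted samples below. In bulk RNA of this kind, fewer cells of a type and less RNA per cell cannot be told apart.

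DT samples held more RNA of most of these genes. Of the 9 members whose mean over the 7 libraries reached 1 RPM, 8 rose in DT and Tlr9 did not pass the test. By ratio of means, DT over PBS, the rises ran from 38.4 for Tlr13, at 42.9 ± 7.98 RPM in DT (SD, n = 3) and 1.12 ± 0.710 RPM in PBS (SD, n = 4), to 3.08 for Myd88, at 96.7 ± 7.71 RPM in DT (SD, n = 3) and 31.4 ± 3.83 RPM in PBS (SD, n = 4). Tlr3 lay under the minimum mean and was not tested. The test was limma on log2(RPM + 1) across 14100 genes, two-sided, with Benjamini-Hochberg adjusted p under 0.05. Of all tested genes 32% passed, 13.4% rising and 18.6% falling in DT, and the median difference was -0.23 on the log2 scale against 2.28 over the 9 tested members. Median-ratio scaling, which moved the median of all genes to -0.02 and gave 2363 rises and 1321 falls where the deposited scaling gave 1894 rises and 2622 falls, left 8 members higher.

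**Figure D1:**
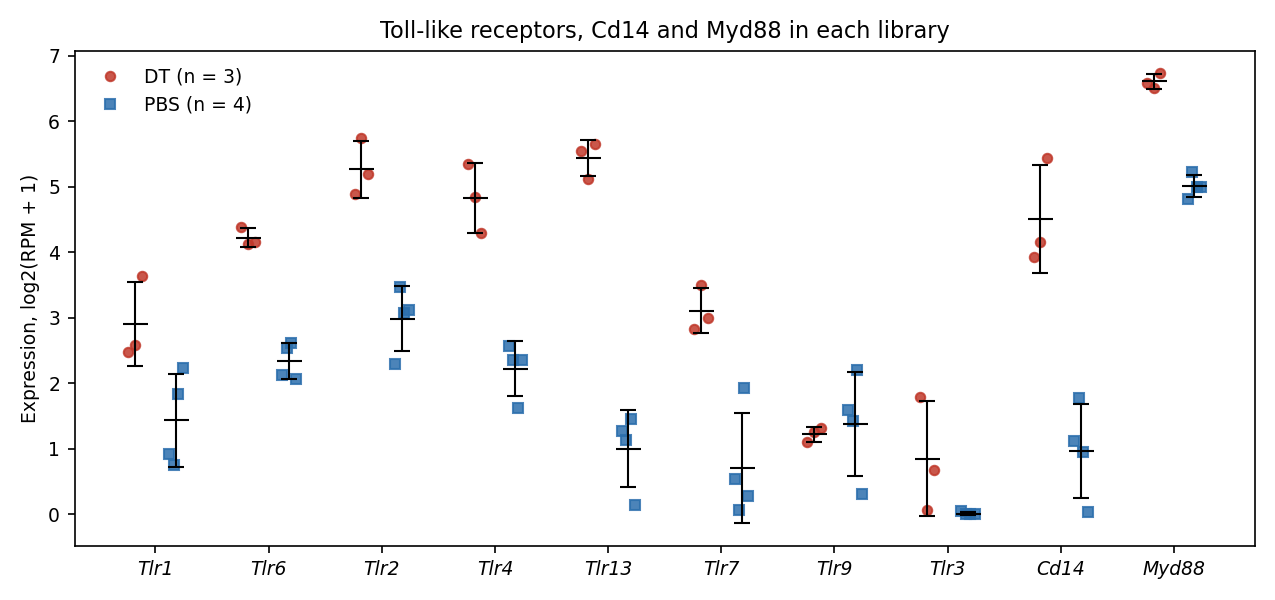
Expression of the 10 genes as log2(RPM + 1), with DT libraries as red circles (n = 3) left of PBS libraries as blue squares (n = 4), and black bars giving the mean and SD on that scale. All DT libraries lie above all PBS libraries for 8 genes, Tlr9 overlaps, and for Tlr3 the lowest DT library (2 reads) and all PBS libraries are under 3 reads.

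Of the surface receptors, Tlr2 pairs with Tlr1 or Tlr6 to bind bacterial lipopeptides. Tlr2 (chromosome 3, 83836272 to 83841767, minus strand, mm10, GENCODE vM21) was at 28.5, 52.4 and 35.4 RPM in DT replicates 1 to 3, against 3.89, 10.1, 7.41 and 7.66 RPM in PBS replicates 1 to 4. Its lowest DT library was above its highest PBS library. The ratio of group means was 5.34 and the difference was 2.28 ± 0.32 on the log2(RPM + 1) scale (SE; limma, adjusted p = 0.000700).

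Tlr1 and Tlr6, the alternative partners of Tlr2, are neighbours on the minus strand of chromosome 5 (64924679 to 64933563 and 64952031 to 64960097, mm10, GENCODE vM21), and their transcripts share sequence. Of the distinct windows of 50 bases in their annotated transcripts, the read length used here, 454 are identical, which is 13.6% of Tlr1 windows and 12.3% of Tlr6 windows. These windows form 6 runs that hold 748 bases, all within the coding sequence. The longest run is shown because a read that falls inside it cannot be assigned to one of the genes by its bases. It covers 229 bases, at chr5:64925537-64925765 in Tlr1 and chr5:64953828-64954056 in Tlr6, in GENCODE vM21 transcripts on mm10.
Shared run: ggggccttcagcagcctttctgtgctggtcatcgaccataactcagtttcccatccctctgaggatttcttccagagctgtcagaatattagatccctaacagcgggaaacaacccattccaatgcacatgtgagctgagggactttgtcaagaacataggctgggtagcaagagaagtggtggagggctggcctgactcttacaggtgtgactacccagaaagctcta
A pair of windows at its upstream edge shows how the genes are told apart. They cover 60 bases at chr5:64925737-64925796 in Tlr1 and chr5:64954028-64954087 in Tlr6 (minus strand, mm10), and the capital marks the single base that differs.
Tlr1: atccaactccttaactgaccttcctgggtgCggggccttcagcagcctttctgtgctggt
Tlr6: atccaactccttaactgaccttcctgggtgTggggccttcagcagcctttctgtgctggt

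The deposited values carry the trace of that shared sequence. Divided by the value of 1 read, 8 of the 10 genes gave whole reads within 0.02 of a read in all 7 libraries. Tlr1 and Tlr6 gave whole reads in 0 of 7 libraries each, with distances of up to 0.481 reads, but their sum was whole in 7 of 7 libraries. Reads were thus divided in fractions between them, and their separate values are uncertain while their sum is not affected.

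**Figure D2:**
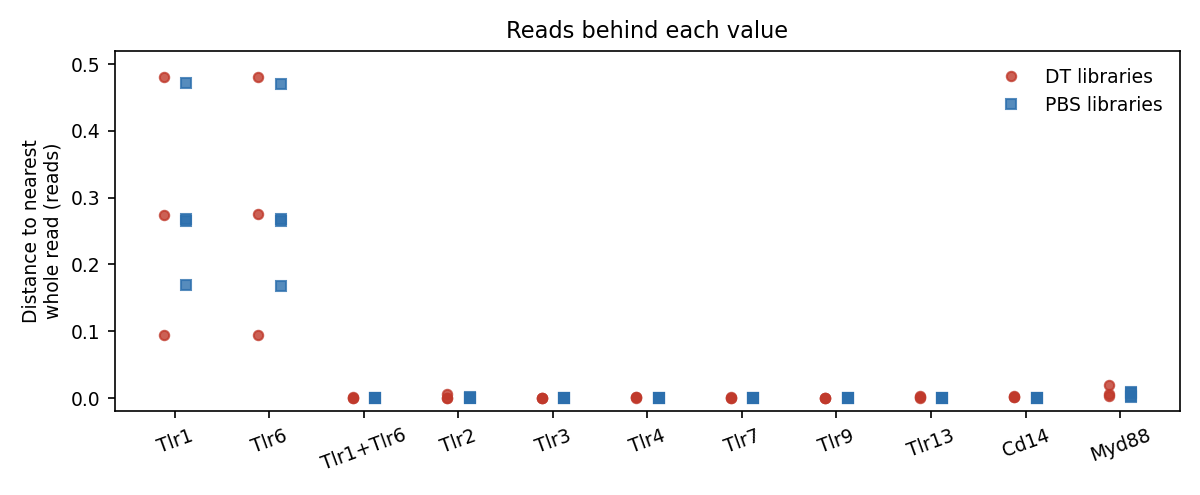
Distance of each value from the nearest whole read, in reads, with DT libraries as red circles left of PBS libraries as blue squares. Tlr1 and Tlr6 lie up to 0.481 reads away, whereas their sum and the other 8 genes lie within 0.02.

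Tlr6 was at 19.9, 16.4 and 16.8 RPM in DT replicates 1 to 3, against 3.38, 4.79, 5.13 and 3.203 RPM in PBS replicates 1 to 4. It rose by 1.88 ± 0.26 on the log2 scale (SE; limma, adjusted p = 0.000601), with no overlap and a narrow spread in both groups. Tlr1 was at 4.54, 5.01 and 11.4 RPM in DT replicates 1 to 3, against 0.896, 0.683, 2.57 and 3.68 RPM in PBS replicates 1 to 4. The groups did not overlap, but DT replicate 3 stood well above the other DT libraries. Tlr1 rose by 1.46 ± 0.45 (SE; limma, adjusted p = 0.0328), and it missed the threshold without DT replicate 1 (0.0512), DT replicate 2 (0.0603), DT replicate 3 (0.138) or PBS replicate 2 (0.0689) and without a filter on low values (0.129). Summed, the pair was at 24.4, 21.4 and 28.2 RPM in DT replicates 1 to 3, against 4.28, 5.47, 7.70 and 6.88 RPM in PBS replicates 1 to 4. That sum rose by 1.88 ± 0.26 (SE; limma, adjusted p = 0.0005715), a fit added after the values were seen.

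Tlr4 binds lipopolysaccharide together with Ly96, and Cd14 hands the ligand to that complex. Tlr4 (chromosome 4, 66827584 to 66930284, plus strand) was at 39.8, 27.6 and 18.5 RPM in DT replicates 1 to 3, against 4.94, 4.09, 2.08 and 4.11 RPM in PBS replicates 1 to 4. The groups were well apart, although the DT libraries differed by up to 2.15 times among themselves. The ratio of means was 7.52 and the log2 difference 2.60 ± 0.33 (SE; limma, adjusted p = 0.000395).

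Cd14 (chromosome 18, 36725067 to 36726798, minus strand) was at 14.2, 16.8 and 42.5 RPM in DT replicates 1 to 3, against 1.175, 2.43, 0.923 and 0.0260 RPM in PBS replicates 1 to 4. The last of these is 1 read. It rose by 3.54 ± 0.48 on the log2 scale (SE; limma, adjusted p = 0.000577), and the ratio of means was 21.5. DT replicate 3 was the highest DT library for Cd14 and the lowest for Tlr4, so the co-receptor and its receptor did not follow one order within DT. DT replicate 3 was also the highest DT library for the macrophage genes C1qa, at 6.98, 5.97 and 21.95 RPM in DT replicates 1 to 3, and Cd68, at 97.6, 84.2 and 158.7 RPM in the same libraries. Of the 10 monocyte and macrophage markers, 8 were highest in DT replicate 3, and Ccr2 and Mpeg1 were highest in DT replicate 1. Among PBS libraries the order differed: Cd14 was highest in PBS replicate 2, as were 2 of the 10 markers, while 6 were highest in PBS replicate 1. The part of monocytes and macrophages in the Cd14 value was not tested.

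Among the endosomal receptors the 4 genes differed most from each other. Tlr13, which in the mouse senses bacterial ribosomal RNA, had the largest difference of the 9 tested members. Tlr13 (chromosome X, 106143204 to 106160493, plus strand) was at 45.6, 33.9 and 49.1 RPM in DT replicates 1 to 3, against 1.42, 1.20, 1.74 and 0.104 RPM in PBS replicates 1 to 4. All DT libraries were far above the highest PBS library, and PBS replicate 4 was the lowest. The ratio of means was 38.4 and the log2 difference 4.44 ± 0.35 (SE; limma, adjusted p = 2.01e-05).

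Tlr7, the receptor for single-stranded RNA (chromosome X, 167304929 to 167330558, minus strand), was at 6.14, 10.3 and 6.95 RPM in DT replicates 1 to 3, against 0.452, 0.0512, 2.79 and 0.207 RPM in PBS replicates 1 to 4. PBS replicate 3 stood above the other PBS libraries but below every DT library. Tlr7 rose by 2.41 ± 0.45 (SE; limma, adjusted p = 0.00350). Tlr9, the receptor for unmethylated CpG DNA (chromosome 9, 106222598 to 106226883, plus strand), was at 1.14, 1.38 and 1.503 RPM in DT replicates 1 to 3, against 2.02, 1.69, 3.61 and 0.233 RPM in PBS replicates 1 to 4. The PBS libraries lay on both sides of the DT libraries. Its log2 difference was -0.16 with a 95% interval of -1.11 to 0.79 (limma, adjusted p = 0.803), which does not show that the groups are equal, and without PBS replicate 3 the difference was 0.12.

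Tlr3, the receptor for double-stranded RNA, was close to the limit of detection. Tlr3 (chromosome 8, 45395665 to 45411080, minus strand) had 100, 2 and 31 reads in DT replicates 1 to 3, against 1, 0, 0 and 0 reads in PBS replicates 1 to 4. In RPM the DT libraries were at 2.47, 0.0477 and 0.605, and the single PBS read was 0.0302 RPM. DT replicate 2 was under 3 reads, so Tlr3 was seen clearly in DT replicates 1 and 3 only. An antisense gene, Gm45542, overlaps its exons and was listed at 0 reads in all 7 libraries.

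Myd88, the adaptor that links most of these receptors to IRAK kinases (chromosome 9, 119335934 to 119341411, minus strand), was at 94.8, 90.2 and 105.2 RPM in DT replicates 1 to 3, against 27.1, 36.4, 31.0 and 31.0 RPM in PBS replicates 1 to 4. Both groups were tight and did not overlap. Myd88 rose by 1.60 ± 0.16 on the log2 scale (SE; limma, adjusted p = 7.07e-05), a ratio of means of 3.08. Its exons overlap those of Acaa1a, a peroxisomal thiolase gene on the opposite strand, at 40.3 ± 4.41 RPM in DT (SD, n = 3) and 31.7 ± 7.08 RPM in PBS (SD, n = 4). The strand setting of the counting is not given in the sources used here, so reads of the shared part cannot be assigned.

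DT libraries lay above all PBS libraries for 8 of the 9 tested members, where 16.1% of all tested genes did so and 24.7% lay below. The order of the Tlr3 values rests on 2 reads in DT replicate 2 and 1 read in PBS replicate 1, both under 3 reads, and is not counted. In exact two-sided permutation tests over all 35 assignments of the libraries, 6 of the 9 tested members reached the smallest p possible, 0.0286, and Tlr1 and Tlr7 had p = 0.0571. Tlr9 had an exact p of 0.686. These tests were run on the members only. The share of all tested genes at the smallest p is thus not known, and the count is not set against it.

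**Figure D3:**
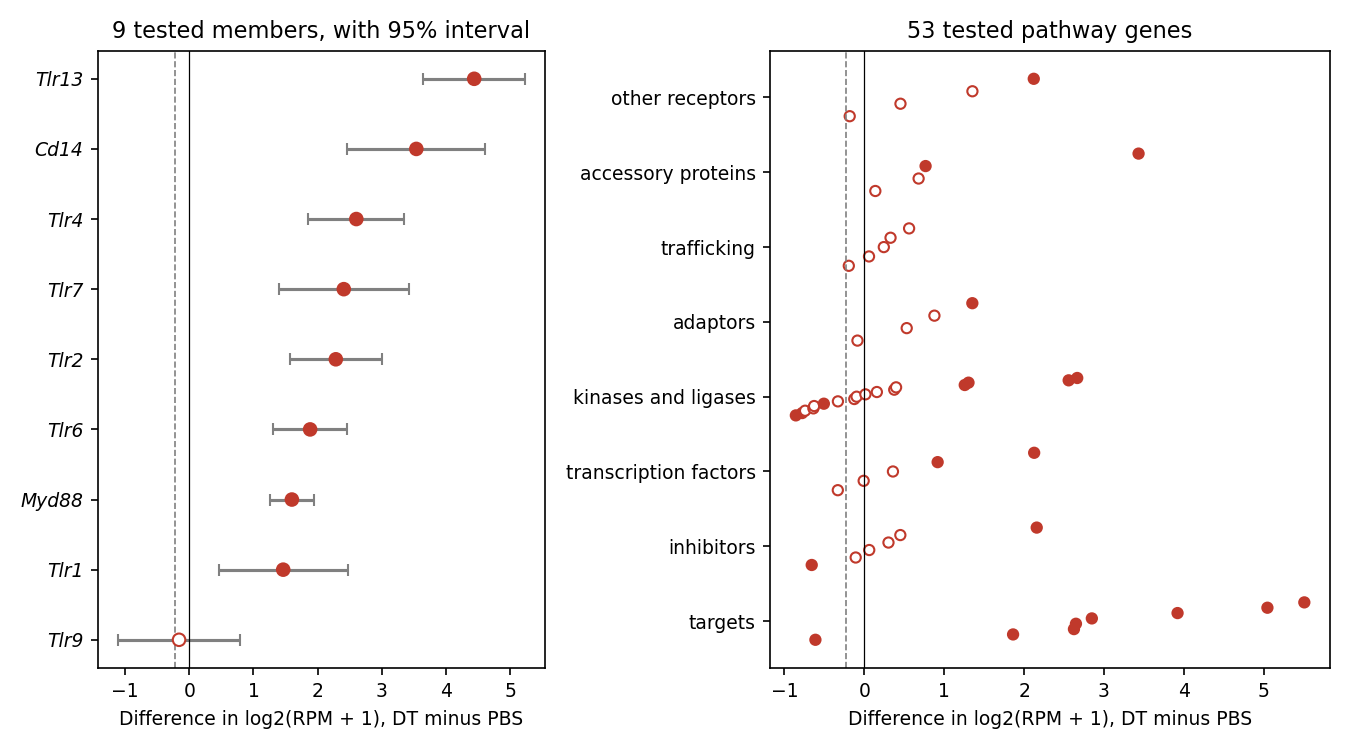
Difference in log2(RPM + 1), DT minus PBS, for the 9 tested members with 95% intervals (left) and for 53 tested genes of the same pathway by role (right), with filled points past adjusted p under 0.05 (limma) and a dashed line at the median of all tested genes, -0.23. Tlr13 is highest at 4.44 and Tlr9 lies at -0.16.

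To set the genes against each other, RPM was divided by the exonic length of each gene in kb (GENCODE vM21). In DT, Myd88 was highest at 37.6 ± 2.99 RPM per kb (SD, n = 3), with all its libraries above those of the other members. Cd14 at 14.1 ± 9.03, Tlr2 at 12.9 ± 4.09 and Tlr13 at 9.96 ± 1.85 RPM per kb followed, and neighbours in that order overlapped. Tlr4 at 5.15 ± 1.92 and Tlr6 at 4.75 ± 0.514 RPM per kb came next and overlapped, then Tlr1 at 2.09 ± 1.15 and Tlr7 at 1.91 ± 0.540 RPM per kb, which overlapped too. Tlr9 at 0.385 ± 0.0533 and Tlr3 at 0.200 ± 0.244 RPM per kb were lowest. In PBS, Myd88 at 12.2 ± 1.49 RPM per kb (SD, n = 4) was again separate from the rest. Tlr2 at 2.41 ± 0.848, Tlr6 at 1.11 ± 0.261, Tlr4 at 0.685 ± 0.219, Cd14 at 0.657 ± 0.572, Tlr1 at 0.585 ± 0.426, Tlr9 at 0.543 ± 0.399, Tlr13 at 0.259 ± 0.165 and Tlr7 at 0.215 ± 0.316 RPM per kb followed. Each of these overlapped its neighbour in the order, and Tlr3 stood below them. Tlr13 was thus at rank 4 of 10 in DT and rank 8 of 10 in PBS.

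The make-up of the receptor RNA differed accordingly. Tlr13 made 29.3%, 20.1% and 31.1% of the summed length-scaled level of the 8 receptors in DT replicates 1 to 3, against 7.51%, 4.395%, 5.69% and 0.447% in PBS replicates 1 to 4. The 4 endosomal receptors together made 35.6%, 27.6% and 37.3% in DT replicates 1 to 3, against 23.4%, 12.2%, 29.95% and 2.635% in PBS replicates 1 to 4. Tlr13 shares did not overlap between groups, whereas the endosomal shares of DT replicate 2 and PBS replicate 3 crossed.

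**Figure D4:**
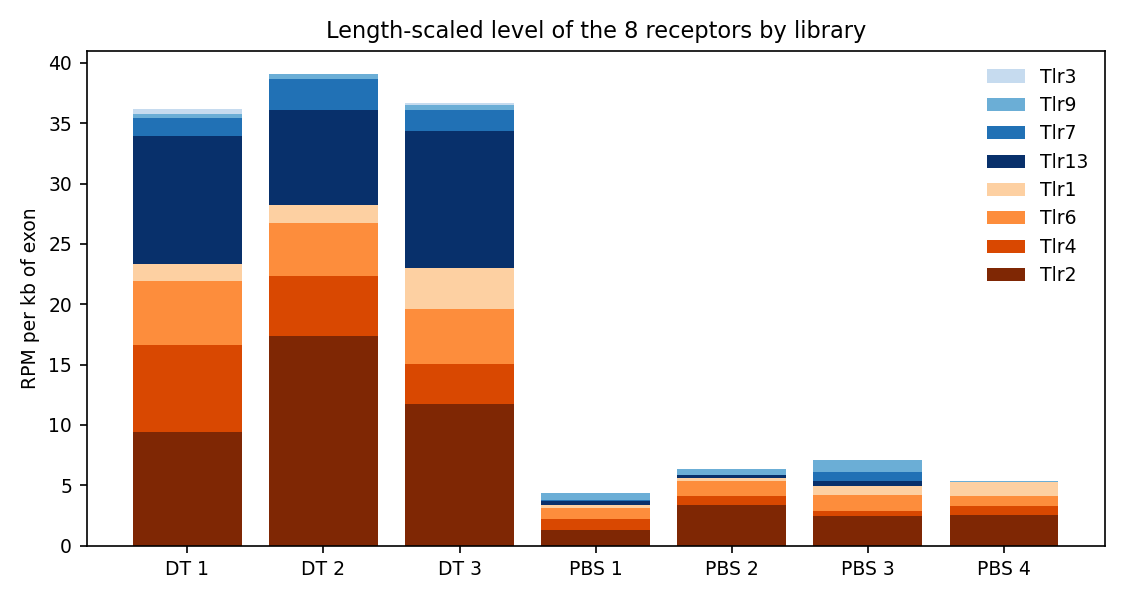
Stacked length-scaled level (RPM per kb of exon) of the 8 Toll-like receptor genes in each library, DT left of PBS, with surface receptors in orange and endosomal receptors in blue. Tlr13, in dark blue, makes 20.1% to 31.1% of the DT bars and at most 7.51% of the PBS bars.

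Markers of some blood cells rose in DT as well, while those of others fell. All 10 neutrophil markers rose (Ngp and S100a8 having the highest RPM), with a summed level of 48760 to 52360 RPM in DT and 1451 to 2785 RPM in PBS. All 10 monocyte and macrophage markers rose (Ly6c2 and Ccr2 having the highest RPM), with sums of 1394 to 1682 RPM in DT and 143.0 to 307.4 RPM in PBS. Both lists are cells in which Toll-like receptors are well known, and the gate had excluded CD11b+ and Gr1+ cells. The ratio of mean sums, DT over PBS, was 22.0 for neutrophil and 7.77 for monocyte and macrophage markers. For the lists described below it was 9.07 for T and natural killer cell, 3.15 for classical dendritic cell and 3.07 for endothelial markers. It was 0.84 for plasmacytoid, 0.557 for B cell and 0.215 for erythroid markers. Against these, the ratio of means was 38.4 for Tlr13, 21.5 for Cd14, 8.895 for Tlr7, 7.52 for Tlr4 and 5.34 for Tlr2. It was 4.29 for Tlr6, 3.57 for Tlr1, 3.08 for Myd88 and 0.71 for Tlr9. All 7 T and natural killer cell markers rose as well, with sums of 314.4 to 333.4 RPM in DT and 21.2 to 53.8 RPM in PBS (Nkg7 and Trbc2 having the highest RPM). The part of any of these cells in the members' differences was not tested.

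B cells and plasmacytoid dendritic cells are known sources of Tlr7 and Tlr9. Of 8 B cell markers 5 fell and 0 rose, with sums of 2782 to 3075 RPM in DT and 3665 to 6384 RPM in PBS (Cd79a and Cd79b having the highest RPM). Of 7 plasmacytoid markers 2 rose and 1 fell, with overlapping sums of 398.6 to 502.2 RPM in DT and 395.6 to 713.1 RPM in PBS. Ly6d and Tcf4 had the highest RPM of them, and both are also known from B-lineage cells. Siglech, a surface lectin that marks plasmacytoid dendritic cells in the mouse, was at 39.8, 55.4 and 27.4 RPM in DT replicates 1 to 3, against 5.995, 1.36, 6.85 and 0.543 RPM in PBS replicates 1 to 4. Tlr7 was highest in DT replicate 2 and PBS replicate 3. Of the 7 plasmacytoid markers, 5 were highest among DT libraries in DT replicate 2 and 3 among PBS libraries in PBS replicate 3, and Siglech, Ly6d and Klk1 were so in both. PBS replicate 1 likewise had the highest PBS value for 3 of the 7. This order was not particular to that list in DT replicate 2, where 5 of 7 T and natural killer cell markers and 6 of 8 erythroid markers were also highest. In PBS replicate 3 the highest were 2 of 7 and 2 of 8 of these. Of 8 classical dendritic cell markers 5 were tested and 4 rose, with sums of 54.9 to 75.3 RPM in DT and 14.6 to 31.9 RPM in PBS, Naaa and Cd209a having the highest RPM in DT. Xcr1, Clec9a and Batf3 were too low to test. Their means were 0.300, 0.548 and 0.9265 RPM in DT, against 0.326, 0.5275 and 0.193 RPM in PBS. Whether the number of classical dendritic cells differed between the groups was not tested. Zbtb46 itself was at 0.0248, 3.115 and 1.56 RPM in DT replicates 1 to 3, against 1.54, 17.5, 10.4 and 7.45 RPM in PBS replicates 1 to 4, and did not pass (limma, adjusted p = 0.0556). Of 8 erythroid markers 6 fell and 2 rose, with sums of 1123 to 1494 RPM in DT and 828.1 to 10250 RPM in PBS (Car2 and Car1 having the highest RPM), and PBS replicate 1 had the lowest sum. Of the 12 endothelial markers 3 were tested and 1, Flt1, rose. What these other lists contribute was not tested either.

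**Figure D5:**
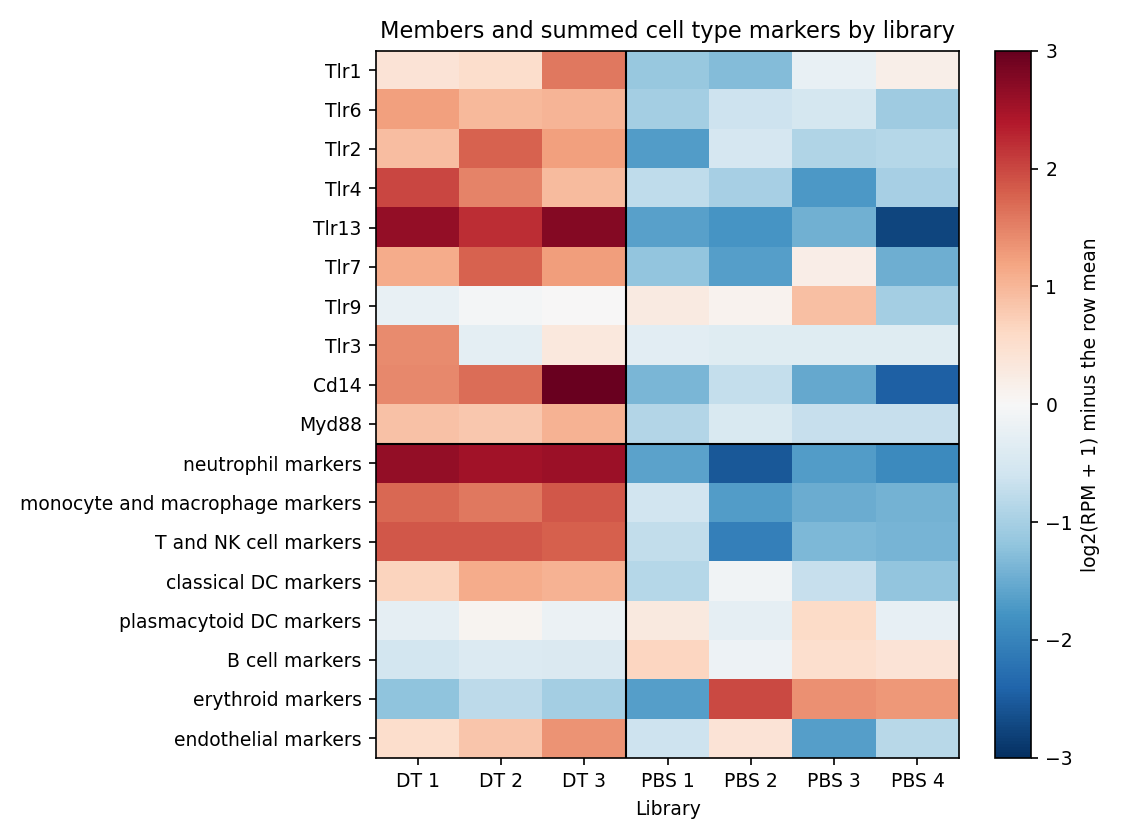
Log2(RPM + 1) minus the row mean for the 10 genes (above the line) and for summed cell type markers (below it), by library, DT left of PBS, with red higher and blue lower. Neutrophil markers, at 48760 to 52360 RPM in DT and 1451 to 2785 RPM in PBS, are higher in DT, as are monocyte and macrophage markers (1394 to 1682 RPM in DT, 143.0 to 307.4 RPM in PBS) and T and natural killer cell markers, whereas B cell markers are lower in DT.

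A list of 60 other genes of the Toll-like receptor pathway was read from the same fit. Of 53 tested, 18 rose (34%, where 13.4% of all tested genes rose) and 5 fell (9.43%, where 18.6% of all tested genes fell), with a median log2 difference of 0.37 against -0.23 over all tested genes. Under median-ratio scaling 24 rose and 0 fell, so the falls depend on the scaling. Tlr8, a further endosomal receptor, was at 3.91, 5.09 and 3.79 RPM in DT replicates 1 to 3, against 0.0603, 0.358, 0.0265 and 0.414 RPM in PBS replicates 1 to 4, and rose (limma, adjusted p = 0.000521). Tlr5, Tlr12 and Cd180 did not pass (limma, adjusted p = 0.0673, 0.781 and 0.547), and Tlr11 had 0 reads in every library, which allows up to 0.0585 to 0.0904 RPM.

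Of the 4 accessory genes, Lbp and Ly86 rose (50%, where 13.4% of all tested genes rose). Lbp encodes the serum protein that loads lipopolysaccharide onto Cd14, and it was at 67.9, 65.1 and 55.1 RPM in DT replicates 1 to 3, against 8.62, 4.45, 2.715 and 5.12 RPM in PBS replicates 1 to 4 (log2 difference 3.43 ± 0.31, SE; limma, adjusted p = 4.33e-05). Ly86, partner of Cd180, rose by 0.77 ± 0.21 (SE; limma, adjusted p = 0.0213). Its adjusted p in limma was 0.0511, 0.0687 and 0.08475 without DT replicate 1, 2 or 3, and 0.0555 without PBS replicate 4. It was 0.0692 without a filter and 0.0639 with the replicate number as a block. Ly96, the lipopolysaccharide-binding partner of Tlr4, was at 6.86 ± 2.29 RPM in DT (SD, n = 3) and 3.85 ± 0.909 RPM in PBS (SD, n = 4) and did not pass (limma, adjusted p = 0.117). None of the 5 genes for chaperones and transport of Toll-like receptors passed in limma (adjusted p 0.0661 to 0.8435), and 2 of them, Cnpy3 and Hsp90b1, had an unadjusted p under 0.05. One of the 5 is Unc93b1, which carries nucleic acid receptors to endosomes, at 333.0 ± 32.2 RPM in DT (SD, n = 3) and 290.7 ± 83.8 RPM in PBS (SD, n = 4).

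Downstream of the receptors the adaptor Tirap, which brings Myd88 to Tlr2 and Tlr4, was at 55.6, 45.4 and 44.2 RPM in DT replicates 1 to 3, against 24.4, 12.65, 21.0 and 17.0 RPM in PBS replicates 1 to 4. It rose by 1.35 ± 0.23 (SE; limma, adjusted p = 0.00229), while Ticam1, Ticam2 and Pik3ap1 did not pass. Of 17 kinases, ligases and their partners 4 rose (23.5%) and 3 fell (17.6%), the falls being near the 18.6% of all tested genes. Ikbke and Map3k8, kinases upstream of IRF and MAP kinase signalling, rose by 2.67 ± 0.33 and 2.56 ± 0.49 (SE; limma, adjusted p = 0.000328 and 0.00376). Irak4 and Irak2, kinases of the Myd88 complex, rose by 1.30 ± 0.26 and 1.26 ± 0.26 (SE; limma, adjusted p = 0.00503 and 0.00536). Chuk, Tab2 and Traf6, parts of the route to NF-kB, fell by 0.86, 0.78 and 0.51 (limma, adjusted p = 0.0117, 0.0103 and 0.0481), and all missed the threshold under median-ratio scaling (0.0623, 0.0538 and 0.269). Tab2 missed it without DT replicate 3 (0.0536) as well. Traf6 kept its call only with a minimum mean of 5 RPM, without a filter, with a pseudocount of 0.1 and without PBS replicate 4, with adjusted p from 0.0430 to 0.269 over its alternatives. Ube2n, the most abundant of those that did not pass, was at 158.1 ± 7.62 RPM in DT (SD, n = 3) and 199.2 ± 12.25 RPM in PBS (SD, n = 4), and it passed without PBS replicate 1 (limma, adjusted p = 0.0311).

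Among 5 transcription factors 2 rose (40%, where 13.4% of all tested genes rose). Irf7 and Irf5 rose by 2.13 ± 0.31 and 0.92 ± 0.19 (SE; limma, adjusted p = 0.000906 and 0.00635), and Nfkb1, Rela and Irf3 did not pass. Both IRFs act below Tlr7 and Tlr9 in the induction of interferons and cytokines. Of 6 inhibitors 1 rose and 1 fell (16.7% each), near the 13.4% and 18.6% of all tested genes. Irak3, which blocks the release of IRAK kinases from the receptor, rose by 2.16 ± 0.45 (SE; limma, adjusted p = 0.00626). Sigirr, a decoy member of the receptor family, fell by 0.66 (limma, adjusted p = 0.0492) but kept that call only with a minimum mean of 5 RPM, without DT replicate 3 and without PBS replicate 1, with adjusted p from 0.0239 to 0.1885 over its alternatives. Of 8 tested target genes of the pathway 7 rose (87.5%, against 13.4% of all tested genes) and Il12a fell (12.5%, against 18.6%). Cxcl2 and Il1b, an attractant of neutrophils and an inflammatory cytokine, rose by 5.51 ± 0.46 and 5.05 ± 0.33 (SE; limma, adjusted p = 2.57e-05 and 5.95e-06). Acod1, which makes itaconate in activated macrophages, rose by 3.92 ± 0.31, and Nlrp3, an inflammasome sensor, by 2.85 ± 0.27 (SE; limma, adjusted p = 1.98e-05 and 6.10e-05). Il12a fell by 0.61 (limma, adjusted p = 0.0410) and kept that call only with a minimum mean of 5 RPM, with a pseudocount of 0.1 and without PBS replicate 2, with adjusted p from 0.0101 to 0.219 over its alternatives. Ifnb1 and Il12b had 0 reads in every library.

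The interleukin-1 receptor family shares the intracellular TIR domain and Myd88 with the Toll-like receptors. Of 5 tested genes 4 rose (80%, where 13.4% of all tested genes rose). Il18rap, a chain of the interleukin-18 receptor, was at 65.8, 59.6 and 68.8 RPM in DT replicates 1 to 3, against 1.72, 2.10, 4.06 and 1.81 RPM in PBS replicates 1 to 4, and its partner Il18r1 rose by 2.59 ± 0.28 (SE; limma, adjusted p = 0.000124). Il1rap and Il1rl2 rose by 1.22 ± 0.30 and 2.10 ± 0.52 (SE; limma, adjusted p = 0.0130 and 0.0132), and both missed the threshold without DT replicate 1 (0.0520 and 0.0568) or DT replicate 3 (0.0602 and 0.05975), as did Il1rl2 without a filter (0.0727). Il1rl1, the interleukin-33 receptor, was at 2.33, 3.38 and 1.81 RPM in DT replicates 1 to 3, against 2.38, 33.1, 14.9 and 7.81 RPM in PBS replicates 1 to 4. It did not pass (limma, adjusted p = 0.0696), but without PBS replicate 1 it fell by 2.29 (0.00364). Il1r1 was too low to test, at 1.185 ± 0.715 RPM in DT (SD, n = 3) and 0.787 ± 1.15 RPM in PBS (SD, n = 4).

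For each tested member the genes with the most similar profile were taken from the 9273 genes that averaged 5 RPM or more. Likeness was the root-mean-square difference between log2(RPM + 1) profiles over the 7 libraries, each centred on its own mean, and is a description. Closest to Tlr13 were Slc2a6, Apobr and Hdc, at 0.26, 0.28 and 0.32. Cd14 was followed most closely by Ear2, Spic and Tnfsf14, at 0.37, 0.42 and 0.42. For Tlr4 these were Slco3a1, Ms4a2 and Rbm47, at 0.27 to 0.30, and for Tlr2 they were C5ar2, Ltbr and Il18bp, at 0.24 to 0.26. Tlr6 lay nearest to Kcnab2, Ptpre and Pxn, at 0.12 to 0.15, and Tlr1 to Slfn5, Egr1 and Gimap4, at 0.31 to 0.32. Bank1, H2-DMb2 and Atp11a were nearest to Tlr7, at 0.27 to 0.32. Tlr9 had Lysmd4, Rufy1 and Rps6kc1, at 0.22 to 0.26, and Myd88 had Eno1, R3hdm4 and Ctsz, at 0.11 to 0.14.

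Promoter windows, 250 bases before to 50 after an annotated start, were found for 7 of the 10 genes in the RefSeq table (GRCm38.p6). Shown are those of Tlr13, which had the largest rise, Myd88, which rose with the tightest groups, and Tlr9, which did not pass. Capitals mark matches on either strand to the PU.1 core GAGGAA, the AP-1 site TGANTCA, the C/EBP pattern TTGCNNAA or the interferon response pattern (GAAA, any 2 bases, GAAA). The TGANTCA match reads as such on both strands. A search for the NF-kB pattern (GGG, any 2 bases, TTTCC) found none in these 3 windows and 1 in that of Tlr3, 211 bases before the start.
Tlr13 (chrX:106143025-106143324, plus strand): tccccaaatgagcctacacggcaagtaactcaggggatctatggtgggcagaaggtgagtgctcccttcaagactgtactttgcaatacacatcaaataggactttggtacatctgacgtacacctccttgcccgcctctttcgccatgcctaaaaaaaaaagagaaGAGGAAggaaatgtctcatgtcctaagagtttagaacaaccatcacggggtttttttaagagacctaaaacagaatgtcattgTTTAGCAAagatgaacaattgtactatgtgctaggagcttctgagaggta
Myd88 (chr9:119339969-119340268, minus strand): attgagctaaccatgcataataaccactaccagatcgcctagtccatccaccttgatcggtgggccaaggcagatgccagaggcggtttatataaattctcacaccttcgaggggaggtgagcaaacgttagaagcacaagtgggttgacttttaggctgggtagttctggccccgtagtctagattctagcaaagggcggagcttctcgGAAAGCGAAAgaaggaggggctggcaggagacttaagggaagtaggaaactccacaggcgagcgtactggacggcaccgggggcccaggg
Tlr9 (chr9:106222348-106222647, plus strand): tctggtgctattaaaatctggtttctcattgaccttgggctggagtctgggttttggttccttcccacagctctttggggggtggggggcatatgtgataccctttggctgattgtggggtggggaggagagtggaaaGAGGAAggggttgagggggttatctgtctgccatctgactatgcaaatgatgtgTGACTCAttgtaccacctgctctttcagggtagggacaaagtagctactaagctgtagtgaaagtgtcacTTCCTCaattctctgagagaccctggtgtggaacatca
The Tlr13 window held a PU.1 core 83 bases before the start and a C/EBP match at the start itself. The Myd88 window held an interferon response match 40 bases before the start. Tlr9 had a PU.1 core 112 bases before the start, a second one after it, and an AP-1 site 58 bases before it. Of the windows not shown, Tlr6 held 2 overlapping interferon response matches, 116 and 110 bases before the start, and a C/EBP match at 89. Tlr6 and Tlr1 each had a further window, at another annotated start, that held no match. Tlr3 also held a C/EBP match at 95 bases and Tlr1 a PU.1 core at 23 bases before the start. Tlr2 held no match to the 5 patterns as written, and the search leaves out sites that differ from them by any base. Over all 32544 distinct promoter windows, 28.1% held the PU.1 core, 10.8% the C/EBP pattern, 7.79% the AP-1 site, 3.45% the interferon response pattern and 1.61% the NF-kB pattern. These are letter matches, not measured binding.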

How the data were processed

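Per the labels' protocols, 1 ng of total RNA per sample was made into libraries with an ultra-low input kit and sequenced as single reads of 50 bases. STAR 2.5.3a, Partek and mm10 are named per the submitters' processing notes. For annotation and strand setting the sources used here give nothing. The table the authors deposited is named FPKM but behaves as RPM with an offset of 0.0001: in each library 1080 to 1280 genes of widely different lengths share one lowest value, taken as 1 read. Only 60.1% to 62.2% of values up to 20 reads were whole within 0.02, so no count model was run. Here limma 3.58.1 (R 4.3.3) with an intensity trend was fitted to log2(RPM + 1) for the 14100 genes averaging 1 RPM or more, which understates changes of low genes. The method was tested on simulated data. Members, lists and tests were chosen with earlier results of these data known. Named pathway genes follow a rule: all that passed in roles with at most 5 such genes, otherwise the 4 rises and 3 falls with the smallest p and the most abundant gene that did not pass. For each member, the 3 nearest profiles are named. C1qa, Cd68, Mpeg1, Siglech, Klk1, Zbtb46, Xcr1, Clec9a, Batf3, Flt1, Cnpy3, Hsp90b1, Tlr11 and genes listed as not passing were named after their values were seen. Exact permutation tests compared group means. Alternatives were other scalings, pseudocounts and filters, no trend, a replicate block and each library left out. A total of 26 rows with names turned into dates stayed in the fit.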

Additional observations from a re-analysis of the deposited data

Results flagged for a closer look

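Tlr3 in the PBS libraries stood out because 1 of the 4 libraries lay apart from the others by the whole range (gap divided by range, 1). PBS replicate 1 had 1 read, and the other 3 PBS libraries had 0, which fixes the ratio at 1 whatever the size of the gap. The groups of 4 libraries of all 10 genes were examined in this way. Chance marks about 1 in 20 groups, a rate that does not cover tied values such as these. The 3 DT libraries are too few for this rule.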

How the results depend on the processing

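Under the alternatives 119 values of member genes kept their direction and side of the threshold, 5, all of Tlr1, missed the threshold, and 1 reversed: Tlr9 was at 0.12 without PBS replicate 3, and at -0.52 to 0.12 with 1 library left out. The count of members higher in DT was 6 to 8 and that of members lower 0. With a minimum mean of 5 RPM it was 6 of 6. Counts of all genes lower in DT were 2622 as reported, 1321 with median-ratio scaling, 1701 with no filter and 1215 to 3613 with 1 library left out; the cause was not tested. Pathway genes lower numbered 5 as reported, 0 under median-ratio scaling, 3 without a filter, 2 without the trend, 2 under quantile normalization and 2 to 4 with 1 library left out. Interleukin-1 receptor genes higher numbered 2 with a minimum mean of 5 RPM, where 3 are tested, and 2 to 4 with 1 library left out, and those lower 0 to 1. With the replicate number as a block, 1574 genes were lower and 2 pathway genes lower, and 8 members were higher; Ly86 then had an adjusted p of 0.0639 (limma). Deviations of samples with the same number correlated at 0.0103 to 0.0485, so the numbers were not taken as pairs; DT replicates 1 and 2 correlated best with their own number and DT replicate 3 did not. Values under 3 reads, such as those of Tlr3 in 5 libraries, cannot be told from 0.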
